A study of Homo sapiens with 6 samples.

Results

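The class I antigen presentation pathway was followed here through 9 genes in 3 human myeloma cell lines, out of 19775 genes that the array annotation names singly. They were the heavy chains HLA-B, HLA-C and HLA-E, their shared light chain B2M, the peptide transporter subunits TAP1 and TAP2, the loading factor TAPBP, and the immunoproteasome subunits PSMB8 and PSMB9. Every probe set annotated to one of these symbols alone was a member, which gave 23 of 54675 probe sets on the array. HLA-C and TAP2 had 4 probe sets each, HLA-B, HLA-E, B2M and TAPBP had 3 each, and TAP1, PSMB8 and PSMB9 had 1 each. None of the 23 was annotated to several symbols. All 7 HLA-B and HLA-C probe sets and 2 of the 3 HLA-E probe sets carry the suffix x_at, which marks probes that can also bind related transcripts. Their signal may thus be shared among class I genes. Below they are named by the gene of their annotation and counted 1 by 1, although they are not independent of each other.

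The study set CD24+ cells against CD24− cells, sorted by flow cytometry from OPM2, OCI-MY5 and ARP1, established lines of multiple myeloma, a malignancy of plasma cells. All were grown in RPMI-1640 with 10% FBS, no treatment is named, and the submitters call the CD24+ fraction cancer stem cells. Each line gave 1 array of CD24+ cells and 1 array of CD24− cells, so there were 3 arrays per fraction, 2 per line and 6 in all. No culture was repeated, so fractions within 1 line cannot be tested, and the 2 arrays that stand as replicates of a line are its CD24+ and CD24− cells. The p-values between lines therefore weigh a difference against the spread of the CD24+ and CD24− arrays within lines. Those between fractions, where lines are not paired, weigh it against the spread between the lines. Neither holds the spread between repeated cultures.

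Class I molecules carry short peptides from inside the cell to its surface, where T cells read them. The proteasome cuts proteins into peptides, the TAP transporter moves them into the endoplasmic reticulum, and tapasin holds the transporter beside empty class I molecules until a peptide is loaded. Interferon raises many of these genes together and exchanges constitutive proteasome subunits for immunoproteasome ones, and in myeloma the proteasome is a drug target and B2M in serum is a measure of disease burden.

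Values are MAS5 intensities, linear in brightness, with the same trimmed mean on every array. Differences were taken on log2(intensity + 16), where changes of dim probe sets come out too small. Of 27281 probe sets bright enough to be tested (mean log2 value 6.36 or more), 21 were members. TAP2 208428_at, at 8.61 to 86.5 over the 6 arrays, and TAPBP 210294_at, at 6.33 to 92.3, were too dim. Each exceeded the highest signal of the TrpnX control probe sets for a bacterial gene, which spanned 2.23 to 96.4 over all arrays, on 2 of 6 arrays. The other 21 exceeded the highest TrpnX signal of the same array throughout, apart from TAP2 204770_at, which did so on 5 of 6 arrays.

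The arrays differed in quality. The OPM2 CD24+ array stood apart, with a geometric mean of its bacterial spike-in controls of 37362 against 6175 to 7399 on the other 5 arrays and a median intensity of 135 against 69.0 to 84.2. The ratio of 3′ to 5′ signal of ACTB, a measure of RNA integrity, was 27.1 and 7.54 in OPM2 CD24+ and CD24− cells, 9.36 and 23.2 in OCI-MY5, and 2.63 and 2.47 in ARP1. Low ratios and high heavy chain signals thus both marked ARP1, and the part of RNA quality in the results was not tested. All 9 plasma cell markers on the list were bright enough to be tested, whereas the 6 probe sets of CD24 itself ranged from 1.69 to 140.3 and none passed the brightness limit, so the sort could not be checked by its own marker. RNA was pooled from many cells, so fewer cells that carry a transcript and less of it per cell cannot be told apart.

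The stretches of DNA before the genes are shown first, because PSMB9 and TAP1 start close together and their levels are set side by side below. In the reference genome GRCh38.p14 the RefSeq starts of these genes lie 488 bases apart on opposite strands, and their 250-base upstream windows share 13 bases. RefSeq promoter windows matched 8 of the 9 genes by symbol (not HLA-E). Windows of 6 of these genes are given 5′ to 3′ on the gene's own strand. Those of TAP2 and PSMB8 and the second TAP1 window are not printed. Capitals mark any match, on either strand, to the core of an interferon-stimulated response element (GAAA, any 2 bases, then GAAA), to a kappaB site (GGG, any 2 bases, TT, any base, CC) or to CCAAT, with positions counted to the 5′ base of the match on the gene's strand.
PSMB9, chr6:32853942-32854191, plus strand: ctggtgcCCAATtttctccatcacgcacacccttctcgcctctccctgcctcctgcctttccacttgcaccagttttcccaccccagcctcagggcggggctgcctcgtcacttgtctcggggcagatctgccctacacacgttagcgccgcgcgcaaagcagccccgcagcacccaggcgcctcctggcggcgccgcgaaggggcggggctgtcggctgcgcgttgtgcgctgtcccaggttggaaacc
TAP1, upstream start site, chr6:32853705-32853954, minus strand: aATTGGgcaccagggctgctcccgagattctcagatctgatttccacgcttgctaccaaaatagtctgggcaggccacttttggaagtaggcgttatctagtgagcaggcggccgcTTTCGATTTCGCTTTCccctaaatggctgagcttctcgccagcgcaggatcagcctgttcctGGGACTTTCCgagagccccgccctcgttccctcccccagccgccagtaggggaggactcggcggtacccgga
TAPBP, chr6:33314079-33314328, minus strand: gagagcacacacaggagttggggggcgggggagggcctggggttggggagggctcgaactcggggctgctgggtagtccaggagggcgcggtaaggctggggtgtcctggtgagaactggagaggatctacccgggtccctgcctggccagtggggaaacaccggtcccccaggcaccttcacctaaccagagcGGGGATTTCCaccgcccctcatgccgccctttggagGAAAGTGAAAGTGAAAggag
HLA-B, chr6:31357180-31357429, minus strand: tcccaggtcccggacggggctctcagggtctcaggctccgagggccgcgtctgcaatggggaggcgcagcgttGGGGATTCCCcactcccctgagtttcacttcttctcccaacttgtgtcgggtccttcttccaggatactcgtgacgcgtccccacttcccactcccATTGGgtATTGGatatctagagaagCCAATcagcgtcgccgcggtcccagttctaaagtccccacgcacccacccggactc
HLA-C, chr6:31272093-31272342, minus strand: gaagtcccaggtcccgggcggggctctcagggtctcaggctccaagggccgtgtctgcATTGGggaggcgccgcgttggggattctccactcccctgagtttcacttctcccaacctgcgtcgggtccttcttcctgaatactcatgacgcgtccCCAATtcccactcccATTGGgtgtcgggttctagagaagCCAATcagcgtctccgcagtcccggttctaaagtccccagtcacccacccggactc
B2M, chr15:44711267-44711516, plus strand: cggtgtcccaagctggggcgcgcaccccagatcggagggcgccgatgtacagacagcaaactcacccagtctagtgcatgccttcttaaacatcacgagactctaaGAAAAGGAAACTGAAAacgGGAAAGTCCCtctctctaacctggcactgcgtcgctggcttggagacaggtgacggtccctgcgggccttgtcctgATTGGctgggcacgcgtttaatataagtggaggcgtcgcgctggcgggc

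The interferon core was found in 3.02% of 35116 windows of the same length, the kappaB letters in 5.07% and CCAAT in 32.0%. The TAP1 window held 2 overlapping interferon cores, which begin 134 and 128 bases before the start, and a kappaB match at 72. In TAPBP, 2 overlapping cores begin at 20 and 14 bases and a kappaB match at 56, and in B2M they begin at 144 and 138 with a kappaB match at 125. TAP2 held 1 core, at 58 bases. The PSMB9 window had a single CCAAT match at 243. It is the same run of bases as the match at 249 in TAP1, read from the other strand. The interferon cores and the kappaB match of the TAP1 window lie between the starts of these genes. They are thus also upstream of PSMB9, but farther from its start than its window reaches. The lack of such matches in the PSMB9 window therefore reflects the length of the window. HLA-B had a kappaB match at 177 and 3 CCAAT matches, HLA-C had 4 CCAAT matches and no kappaB match, and neither PSMB8 window nor the second TAP1 window had any match. The motifs were chosen after the windows had been read, a match is a description of letters and not of a bound site, and the matches were not tested against expression.

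The clearest result was between lines: OPM2 had far less PSMB9 mRNA than both other lines. It also had less TAPBP and TAP2 mRNA by the brightest probe set of each, while no TAP1 or B2M difference was called in the fit over all 6 arrays. Against ARP1, OPM2 was also lower for 3 of 4 HLA-C probe sets, for 2 of 3 HLA-B probe sets, for 1 of 3 HLA-E probe sets and for PSMB8. Of the 21 tested members, 10 were called lower and 0 higher in OPM2 than in ARP1 (limma with Benjamini-Hochberg adjustment over all tested probe sets). Among these 10, 5 were x_at probe sets of HLA-B or HLA-C, which may share signal. Of all 27281, 15.5% were called in either direction, 9.37% lower and 6.18% higher. The median difference was −0.93 over the members and 0.004 over all tested probe sets. Against OCI-MY5, 3 of 21 members were called lower and 0 higher, where 15.3% of all were called, 8.52% lower and 6.78% higher, so that share is near the background. The medians were −0.42 over the members and 0.065 over all. Between OCI-MY5 and ARP1, 0 of 21 members were called by limma, against 0.348% of all, 0.26% lower and 0.088% higher. An unadjusted p under 0.05 was found for 14 of 21 members and for 5046 of all 27281 probe sets. Each line enters 2 of the 3 comparisons, so these share arrays and their values are given side by side only.

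**Figure D1:**
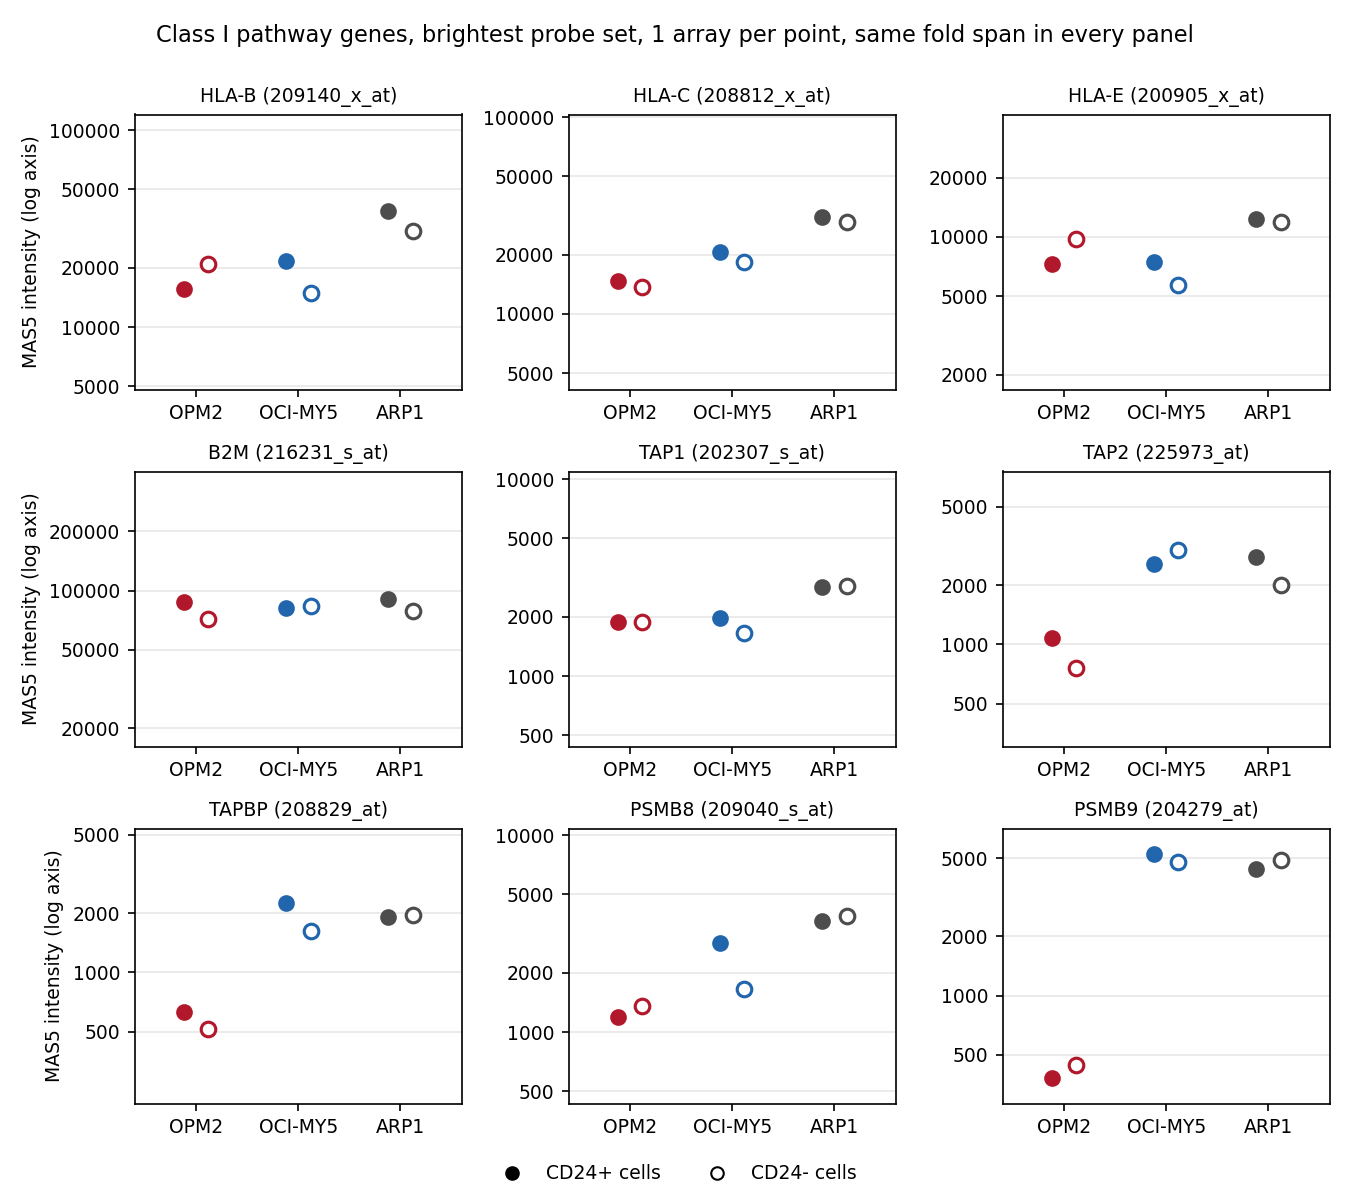
MAS5 intensity of the brightest probe set of each gene (y axis, log scale, the same fold span in every panel) in OPM2, OCI-MY5 and ARP1 cells (x axis); each point is 1 array, filled for CD24+ and open for CD24− cells. PSMB9 lies at 383 and 443 in OPM2, below all 4 other arrays, which read 4426 to 5226, while B2M stays between 71688 and 90590.0.

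The HLA-B and HLA-C heavy chains, which present peptides to CD8 T cells, were brightest in ARP1. HLA-B 209140_x_at read 15613 and 20954 in CD24+ and CD24− cells of OPM2, 21552 and 14893 in OCI-MY5, and 38766 and 30632 in ARP1. Its OPM2 and OCI-MY5 arrays overlapped, and both lay below ARP1. The 2 other HLA-B probe sets separated the lines further. HLA-B 211911_x_at had 2783 and 5378 in OPM2, 8695 and 6491 in OCI-MY5, and 18628 and 17207 in ARP1. HLA-B 208729_x_at had 1735 and 4183 in OPM2, 6383 and 4554 in OCI-MY5, and 15279 and 14772 in ARP1. For both, OPM2 lay below OCI-MY5, and OCI-MY5 below ARP1, without overlap.

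For HLA-B the difference of OPM2 from ARP1 was −0.93 ± 0.30 (SE; adjusted p = 0.100) by 209140_x_at, −2.21 ± 0.38 (adjusted p = 0.0222) by 211911_x_at and −2.47 ± 0.46 (adjusted p = 0.0274) by 208729_x_at. The last 2 correspond to 4.61-fold and 5.55-fold lower signal in OPM2, whereas the first is 1.90-fold. Probe sets annotated to the same gene thus disagreed in size, and each may also bind transcripts of other class I genes. How well each probe set matches the HLA-B alleles of each line was not tested. Against OCI-MY5 the 3 HLA-B differences were 0.01, −0.95 and −0.996, none called (adjusted p = 0.979, 0.148 and 0.198).

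HLA-C gave the same order of lines by each of its 4 probe sets. HLA-C 208812_x_at, its brightest, read 14672 and 13733 in CD24+ and CD24− cells of OPM2, 20737 and 18373 in OCI-MY5, and 30967 and 29267 in ARP1. The dimmest of the 4, 211799_x_at, read 1043 and 1955 in OPM2, 2653 and 2004 in OCI-MY5, and 8901 and 7819 in ARP1. In both probe sets the lines did not overlap, ARP1 being highest and OPM2 lowest. HLA-C was lower in OPM2 than in ARP1 by 208812_x_at, with a difference of −1.08 ± 0.21 (adjusted p = 0.0287), by 214459_x_at (−1.52 ± 0.23, adjusted p = 0.0155) and by 211799_x_at (−2.53 ± 0.36, adjusted p = 0.0144). The remaining one, 216526_x_at, had a difference of −0.82 ± 0.22 (adjusted p = 0.0649) and was not called. Against OCI-MY5 the HLA-C differences lay between −0.68 and −0.16, none called.

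HLA-E, a heavy chain of little variation that is recognised by receptors of natural killer cells, differed by probe set. HLA-E 200904_at, its only probe set without the x_at suffix, read 1065 and 977 in CD24+ and CD24− cells of OPM2, 1026 and 989.8 in OCI-MY5, and 2322 and 2222 in ARP1. OPM2 and OCI-MY5 overlapped far below ARP1, and the difference of OPM2 from ARP1 was −1.14 ± 0.20 (adjusted p = 0.0237). The difference of OPM2 from OCI-MY5 was 0.02 ± 0.20 (adjusted p = 0.959). HLA-E 200905_x_at read 7266 and 9758 in OPM2, 7474 and 5719 in OCI-MY5, and 12283 and 11905 in ARP1, a difference of −0.52 ± 0.26 between OPM2 and ARP1 that was not called. HLA-E 217456_x_at, at 3403 and 2784 in OPM2, 2562 and 2236 in OCI-MY5, and 3739 and 3771 in ARP1, had a difference of −0.29 ± 0.22, also not called.

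Across the heavy chains, all 10 tested probe sets had their highest line mean in ARP1, as did 16 of all 21 members, where 32.65% of all tested probe sets did. Between OCI-MY5 and ARP1 the 10 heavy chain differences were all below 0, with a median of −0.99 against −0.058 over all tested probe sets. Each had an unadjusted p under 0.05, as did 5046 of all 27281 probe sets, but none passed adjustment. HLA-E 200904_at came nearest, at −1.16 ± 0.20 (adjusted p = 0.0871). The lowest line mean among the heavy chains was OPM2 for 6 probe sets, all of HLA-B or HLA-C, and OCI-MY5 for 4, 3 of them of HLA-E. Arrays of OPM2 and ARP1 did not overlap for 17 of 21 members, where the same held for 61.6% of all tested probe sets. For OPM2 and OCI-MY5 this held for 13 members against 61.0%, and for OCI-MY5 and ARP1 for 15 against 60.1%, so with 2 arrays per line separation alone says little.

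B2M, the light chain without which class I heavy chains do not reach the surface, differed little between lines by its brightest probe set. B2M 216231_s_at read 87543 and 71688 in CD24+ and CD24− cells of OPM2, 81622 and 83809.5 in OCI-MY5, and 90590.0 and 79041 in ARP1. The lines overlapped, and its line differences lay between −0.10 and −0.03 with adjusted p of 0.792 to 0.959 and an SE of 0.22 each. B2M 201891_s_at read 123048 and 66520.0 in OPM2, 69478 and 68274 in OCI-MY5, and 63476 and 67178 in ARP1, so the OPM2 CD24+ array alone stood high. B2M 232311_at, much dimmer, read 591.9 and 383.6 in OPM2, 299.5 and 273.1 in OCI-MY5, and 570.2 and 575.6 in ARP1, and no B2M difference between lines was called. Without the OPM2 CD24− array, which leaves only the high CD24+ array for OPM2, B2M 201891_s_at was called higher in OPM2, by 0.91 against ARP1 and 0.84 against OCI-MY5, and B2M 232311_at by 1.01 against OCI-MY5.

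TAP1, 1 of the 2 chains of the peptide transporter, ranged over 0.79 log2 units across the arrays. TAP1 202307_s_at read 1882 and 1875 in CD24+ and CD24− cells of OPM2, 1975 and 1664 in OCI-MY5, and 2842 and 2879.8 in ARP1. OPM2 and OCI-MY5 overlapped, and both lay below ARP1. The differences were −0.60 ± 0.21 (adjusted p = 0.113) for OPM2 minus ARP1, 0.05 ± 0.21 (adjusted p = 0.885) for OPM2 minus OCI-MY5, and −0.65 ± 0.21 (adjusted p = 0.205) for OCI-MY5 minus ARP1. The first was called with the stricter brightness limit (adjusted p = 0.0348) and with a trend in the prior variance (adjusted p = 0.0320), and in none of the 7 other alternatives fitted to the probe set and none of the 6 fits without 1 array.

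TAP2, the other chain, gave different answers by probe set. TAP2 225973_at, its brightest, read 1077 and 759.5 in CD24+ and CD24− cells of OPM2, 2569 and 3005 in OCI-MY5, and 2772 and 2006 in ARP1. OPM2 lay below all 4 other arrays, which overlapped among themselves. It was 2.58-fold lower in OPM2 than in ARP1 (−1.37 ± 0.29, adjusted p = 0.0388) and 3.04-fold lower than in OCI-MY5 (−1.60 ± 0.29, adjusted p = 0.0258). TAP2 204769_s_at read 788 and 768 in OPM2, 1281 and 850.8 in OCI-MY5, and 1078 and 918 in ARP1. Again OPM2 was lowest, but its differences of −0.35 ± 0.27 from ARP1 and −0.42 ± 0.27 from OCI-MY5 were not called. The dim TAP2 204770_at, at 124 and 101 in OPM2, 185 and 137 in OCI-MY5, and 85.9 and 22.8 in ARP1, had a difference of 1.03 ± 0.49 from ARP1 (adjusted p = 0.209), of opposite sign. With the mean of all 4 TAP2 probe sets, which gives the dim 204770_at and the untested 208428_at the same weight as the bright ones, neither TAP2 difference was called.

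TAPBP, which encodes tapasin, had a lower mRNA signal in OPM2 than in both other lines by its brightest probe set. TAPBP 208829_at read 629.9 and 515 in CD24+ and CD24− cells of OPM2, 2256 and 1633 in OCI-MY5, and 1914 and 1963 in ARP1. Both OPM2 arrays lay far below the other 4. The signal was 3.34-fold lower in OPM2 than in ARP1 (−1.74 ± 0.26, adjusted p = 0.0155) and 3.31-fold lower than in OCI-MY5 (−1.72 ± 0.26, adjusted p = 0.0153). OCI-MY5 and ARP1 overlapped, with a difference of −0.01 ± 0.26 (adjusted p = 0.986). TAPBP 1555565_s_at, at 150 and 259.8 in OPM2, 299 and 168 in OCI-MY5, and 215 and 293 in ARP1, overlapped between all lines and was not called. The mean of all 3 TAPBP probe sets, which includes the untested 210294_at, ended the call against ARP1.

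PSMB9 and PSMB8 encode catalytic subunits of the immunoproteasome, the form of the proteasome that favours peptides fitting class I molecules. PSMB9 204279_at read 383 and 443 in CD24+ and CD24− cells of OPM2, 5226 and 4759 in OCI-MY5, and 4426 and 4866 in ARP1. OPM2 was lower by a wide margin in both fractions, and the other 4 arrays lay close together. PSMB9 was 10.9-fold lower in OPM2 than in ARP1 (−3.44 ± 0.21, adjusted p = 0.00174) and 11.7-fold lower than in OCI-MY5 (−3.55 ± 0.21, adjusted p = 0.00149). Of all tested probe sets, 1.59% and 1.17% had a difference as low as PSMB9 or lower in these comparisons. The values for TAPBP 208829_at were 6.91% and 5.9%, and for TAP2 225973_at 10.6% and 6.8%. OCI-MY5 and ARP1 differed by 0.10 ± 0.21 (adjusted p = 0.849).

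**Figure D2:**
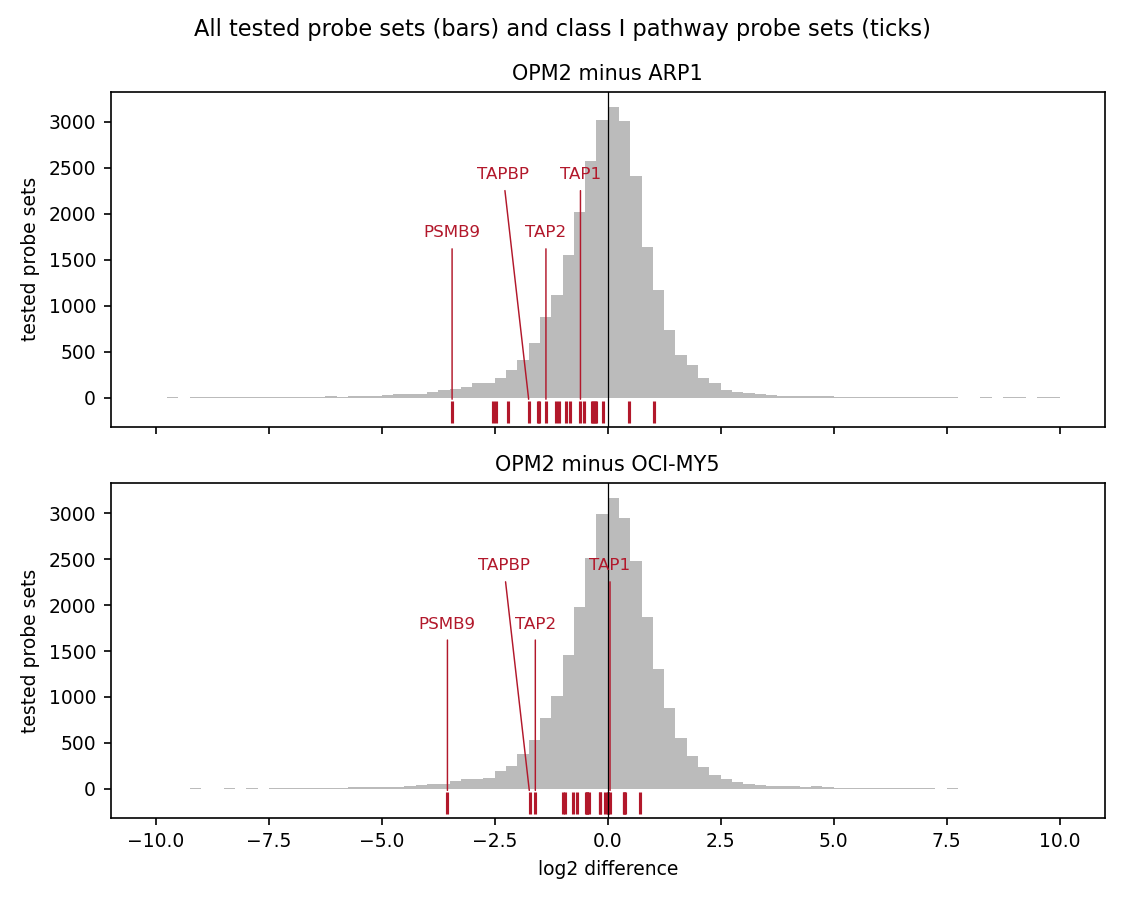
Distribution of the log2 difference between lines (x axis) over all tested probe sets (bars, number of probe sets on the y axis), with the 21 class I probe sets as ticks under each panel; OPM2 minus ARP1 above, OPM2 minus OCI-MY5 below. PSMB9 sits in the lower tail at −3.44 and −3.55, TAPBP 208829_at at −1.74 and −1.72, and TAP1 202307_s_at near the centre at −0.60 and 0.05.

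PSMB8 209040_s_at had a graded pattern. It read 1199 and 1362 in CD24+ and CD24− cells of OPM2, 2832 and 1664 in OCI-MY5, and 3657 and 3904 in ARP1. The 3 lines did not overlap. PSMB8 was 2.93-fold lower in OPM2 than in ARP1 (−1.55 ± 0.31, adjusted p = 0.0326), while its differences of −0.76 ± 0.31 for OPM2 minus OCI-MY5 and −0.80 ± 0.31 for OCI-MY5 minus ARP1 were not called (adjusted p = 0.160 and 0.267). Side by side, the log2 difference of OPM2 from ARP1 was −3.44 for PSMB9 and −0.60 for TAP1, the gene that starts next to it. The difference between these 2 values was not itself tested.

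**Figure D3:**
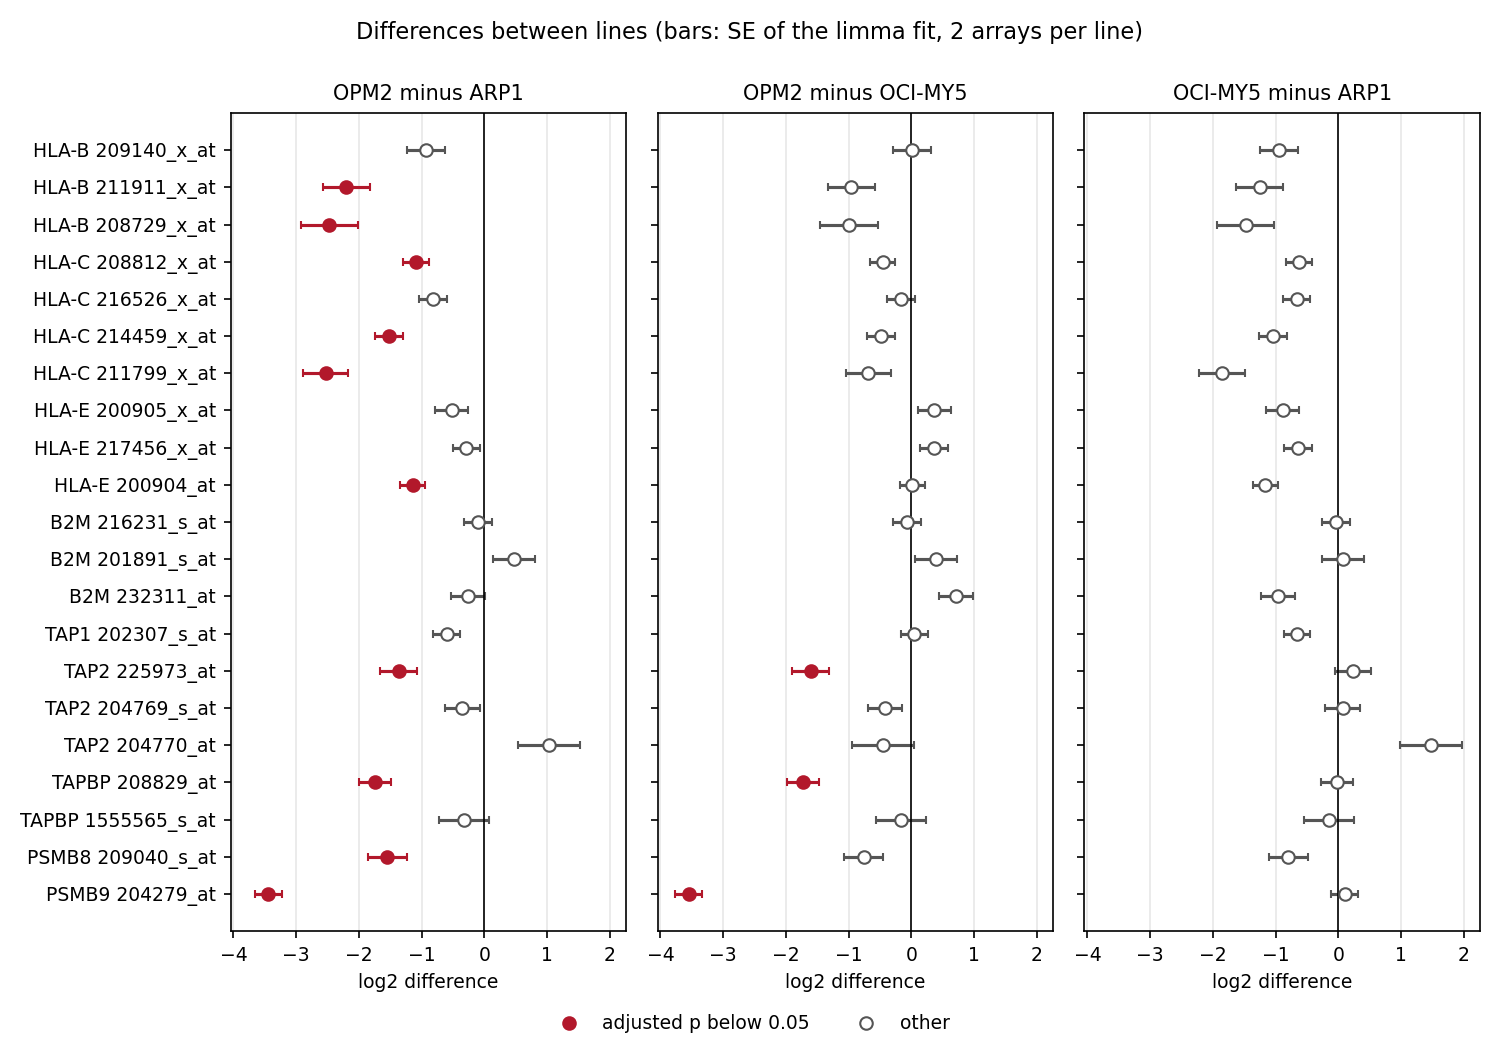
Log2 difference between lines (x axis) of each of the 21 tested class I probe sets (rows), for OPM2 minus ARP1, OPM2 minus OCI-MY5 and OCI-MY5 minus ARP1; points are fitted differences, bars their SE in the limma fit with 2 arrays per line, and filled red points had an adjusted p below 0.05. Filled points number 10, 3 and 0 in the 3 panels, all below 0, and PSMB9 is farthest from 0 in both OPM2 panels.

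The calls differed in how far they rested on single arrays, and the calls over all tested probe sets moved as well. Without either OCI-MY5 array these fell from 4242 to 1710 and 1699 against ARP1. Without either ARP1 array they fell from 4174 to 1560 and 1535 against OCI-MY5. Leaving out an array of a compared line leaves 1 for that line. The calls over all then moved in the same direction as the member counts given here, so these shifts are not particular to class I genes. PSMB9 was called in all 6 fits that left out 1 array and in all 9 other alternatives fitted to it as a single probe set, for both comparisons. Leaving out either ARP1 array reduced the 10 calls against ARP1 to 1, PSMB9, and leaving out either OCI-MY5 array reduced them to 5. Leaving out either ARP1 or OCI-MY5 array reduced the 3 calls against OCI-MY5 to 1, again PSMB9, and leaving out the OPM2 CD24− array raised them to 8, 6 lower and 2 higher. For TAPBP 208829_at the adjusted p reached 0.114 against ARP1 and 0.0982 against OCI-MY5 in these fits, for TAP2 225973_at 0.199 and 0.151, and for PSMB8 0.171 against ARP1. Without the limit on brightness, when 54613 probe sets were tested, PSMB9 was the 1 member called in either comparison. Over all probe sets 1283 were then called against ARP1 and 1192 against OCI-MY5. With the fraction as a covariate 6 calls against ARP1 were left, and the 3 calls against OCI-MY5 stayed. Over all tested probe sets the calls fell to 2951 against ARP1 and to 3045 against OCI-MY5. The calls lost against ARP1 were PSMB8 (adjusted p = 0.0586), TAP2 225973_at (0.0587), HLA-B 208729_x_at (0.0510) and HLA-C 208812_x_at (0.0529).

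Genes that work with class I molecules were counted from lists, with 1 probe set per gene over 12067 tested genes. At that level 25.1% of genes were called between OPM2 and ARP1, 14.9% lower and 10.2% higher in OPM2, and 26.2% between OPM2 and OCI-MY5, 14.8% lower and 11.4% higher. Between OCI-MY5 and ARP1 2.72% were called, 1.83% lower and 0.887% higher, and of the pathway lists only CXCL10 was among them. Among 8 genes of peptide loading and trimming, 3 were lower and 0 higher in OPM2 than in ARP1. They were ERAP1 (−2.24 ± 0.43, adjusted p = 0.0212) and ERAP2 (−1.93 ± 0.39, adjusted p = 0.0245), which trim peptides in the endoplasmic reticulum, and TAPBPL (−1.16 ± 0.25, adjusted p = 0.0287), a relative of tapasin that edits peptides. ERAP2 alone was called against OCI-MY5. It read 148 and 283.5 in CD24+ and CD24− cells of OPM2, 2096 and 2284 in OCI-MY5, and 637 and 1072 in ARP1, with OPM2 below both, and its difference from OCI-MY5 was −3.31 ± 0.39 (adjusted p = 0.00549). The chaperones CALR, CANX, PDIA3 and HSPA5 were not called in any comparison.

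Of 9 tested proteasome genes, 1 was lower in OPM2 than in ARP1 and 2 were lower than in OCI-MY5. PSME1, a subunit of the interferon-inducible activator cap, read 2970.3 and 3408 in CD24+ and CD24− cells of OPM2, 8119 and 7889 in OCI-MY5, and 7768 and 7730.2 in ARP1. OPM2 was separate from the other lines, by −1.28 ± 0.17 from ARP1 (adjusted p = 0.00832) and −1.33 ± 0.17 from OCI-MY5 (adjusted p = 0.00693). PSMA3, a structural subunit, was lower in OPM2 than in OCI-MY5 (−1.21 ± 0.23, adjusted p = 0.0199). PSMB10, the third catalytic subunit of the immunoproteasome, read 4099 and 5063 in OPM2, 4369.5 and 3178 in OCI-MY5, and 3971 and 3662 in ARP1. OCI-MY5 overlapped both other lines. Both OPM2 arrays lay above those of ARP1, but the nearest 2 read 4099 and 3971. Arrays of these lines did not overlap for 61.6% of all tested probe sets either. PSMB10 was not called in any comparison, with a difference of 0.26 ± 0.24 between OPM2 and ARP1 (adjusted p = 0.462).

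Among 7 tested class I-like genes, 3 were lower in OPM2 than in ARP1 and 1 was lower than in OCI-MY5. MICA, a stress ligand of natural killer cells, read 8.44 and 83.0 in OPM2, the first not above the TrpnX maximum of its array, 279 and 357 in OCI-MY5, and 660.4 and 488.8 in ARP1. It was called lower in OPM2 than in ARP1 (adjusted p = 0.0199) and than in OCI-MY5 (adjusted p = 0.0383), and for that reason no size is given. FCGRT, a receptor that recycles antibody, read 124 and 10.2 in OPM2, the second below the TrpnX maximum of its array. In OCI-MY5 it read 37.55 and 31.43, also below the TrpnX maximum of each array, and in ARP1 525 and 567. FCGRT was called lower in OPM2 than in ARP1 (adjusted p = 0.0378), again with no size, and was not called against OCI-MY5 (adjusted p = 0.824). HLA-F, a class I heavy chain, differed by −0.84 ± 0.21 (adjusted p = 0.0400) from ARP1 and by 0.002 ± 0.205 (adjusted p = 0.995) from OCI-MY5.

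Among 12 tested genes of class I transcription, 3 were lower in OPM2 than in ARP1, and 5 were lower and 1 higher in OPM2 than in OCI-MY5. NFYA, a subunit of the factor that binds CCAAT, read 909 and 1365 in CD24+ and CD24− cells of OPM2, 2827 and 2872 in OCI-MY5, and 2828 and 2803 in ARP1. OPM2 was below all other arrays, by −1.33 ± 0.24 from ARP1 (adjusted p = 0.0183) and −1.34 ± 0.24 from OCI-MY5 (adjusted p = 0.0168). RFXANK, of the RFX complex, and NFKB1, which binds kappaB sites, were also called in both comparisons. IRF2 differed from OCI-MY5 by −2.12 ± 0.39 (adjusted p = 0.0179). NLRC5, the transactivator of class I genes, went the other way. It read 942 and 510.5 in OPM2, 259.95 and 244.95 in OCI-MY5, and 477 and 522 in ARP1, and was higher in OPM2 than in OCI-MY5 (1.40 ± 0.32, adjusted p = 0.0313).

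Of 10 tested genes of interferon signalling, JAK2 was called lower in OPM2 than in ARP1 (adjusted p = 0.0464). It read 69.9 and 118.6 in CD24+ and CD24− cells of OPM2, the first below the TrpnX maximum of its array, 156.7 and 132.2 in OCI-MY5, and 311 and 193 in ARP1. Against OCI-MY5, JAK1 was lower (−0.81 ± 0.16, adjusted p = 0.0226), and IFNGR2 (1.30 ± 0.25, adjusted p = 0.0199) and IRF9 (0.89 ± 0.23, adjusted p = 0.0444) were higher. Of 12 tested interferon-stimulated genes, 5 were lower and 0 higher in OPM2 than in ARP1, and 6 were lower and 0 higher than in OCI-MY5. UBE2L6, the enzyme that passes ISG15 to its targets, read 85.4 and 42.6 in CD24+ and CD24− cells of OPM2, 1433 and 1430.5 in OCI-MY5, and 646.0 and 623.6 in ARP1, with the OPM2 values within the TrpnX range. ISG15 read 182 and 158 in OPM2, 1294 and 911 in OCI-MY5, and 1748.0 and 1747.8 in ARP1, a difference of −3.25 ± 0.23 from ARP1 (adjusted p = 0.00163) and of −2.57 ± 0.23 from OCI-MY5 (adjusted p = 0.00268). CXCL10, a chemokine, read 21.9 and 10.8 in OPM2, 7960 and 4757 in OCI-MY5, and 10.2 and 2.49 in ARP1, so it was bright in OCI-MY5 alone. Of 7 class II presentation genes, 3 were lower in OPM2 than in ARP1 and 6 than in OCI-MY5, and none was higher. HLA-DRA, a class II chain, read 111 and 170.6 in OPM2, 2594 and 2121 in OCI-MY5, and 4039 and 3924 in ARP1.

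As a description of likeness, the 5 genes other than the 9 members whose values followed TAP1 most closely over the 6 arrays were WDR13, MEI1, HLA-F, PCK2 and MAGED2, with Pearson correlations of 0.9968, 0.9948, 0.9937, 0.9928 and 0.9924. They were the highest of 7835 genes that ranged over at least 1 log2 unit. HLA-F was read by an x_at probe set, which can also bind transcripts of the class I members. The 6 arrays are 3 pairs from 3 lines, so these values mainly carry the order of the lines, and WDR13 read 556 and 518 in OPM2, 592 and 469.8 in OCI-MY5, and 1042 and 1047 in ARP1. Among the members, by the brightest probe set of each gene, TAP1 correlated at 0.937 with HLA-B, 0.893 with HLA-E, 0.868 with HLA-C and 0.842 with PSMB8, and at 0.409 with PSMB9. PSMB9 correlated at 0.981 with TAPBP and 0.94 with TAP2. HLA-C and PSMB8 correlated at 0.794 and 0.806 with PSMB9. The range over the arrays was widest for PSMB9, at 3.72 log2 units, and narrowest for B2M, at 0.34.

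Between the sorted fractions no member passed the test. Of 21 tested members, 0 were called by limma, with 0 also at an unadjusted p under 0.05, and of all 27281 probe sets 0.0% were called, with 359 at an unadjusted p under 0.05. With the cell line as a block, which pairs the 2 fractions of each line, 0 of 21 and 0 of 27281 were called, and the lowest adjusted p among the members was 0.825. The SE of a member's difference in the paired fit was between 0.18 and 0.40 log2 units, which limits the size of a change that these arrays could show.

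In all, 4 members were higher in CD24+ cells of all 3 lines and 0 were lower in all 3, where 16.59% and 12.64% of all tested probe sets were. They were HLA-C 208812_x_at (mean difference 0.12 ± 0.05, SD, n = 3 lines), HLA-E 200904_at (0.08 ± 0.04), TAP2 204769_s_at (0.28 ± 0.28) and the dim TAP2 204770_at (0.68 ± 0.62). TAP1 averaged 0.08 ± 0.15, PSMB9 −0.07 ± 0.18 and PSMB8 0.16 ± 0.52. PSMB8 differed by −0.18 in OPM2, 0.76 in OCI-MY5 and −0.09 in ARP1, so OCI-MY5 stood apart. The median over the members was 0.005 in OPM2, where 11 of 21 were higher in CD24+ cells, 0.30 in OCI-MY5, where 19 were, and 0.05 in ARP1, where 13 were. Over all tested probe sets the medians were 0.099, 0.025 and −0.002 in these lines.

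The HLA-B and HLA-C differences ran in opposite directions between lines. In OPM2 their 7 probe sets had a median of −0.42, 1 of 7 being higher in CD24+ cells, against 0.40 in OCI-MY5 and 0.11 in ARP1, where 7 of 7 were higher. HLA-B 208729_x_at differed by −1.26 in OPM2, 0.49 in OCI-MY5 and 0.05 in ARP1. The high spike-in signal given above was that of OPM2 CD24+ cells, and within OPM2 and OCI-MY5 the fraction with the higher ACTB ratio, at 27.1 and 23.2, was also the one with the lower HLA-B signal, while the ratios of ARP1 were 2.63 and 2.47. The part of these measures in the difference was not tested, and each line has 1 array per fraction. The median over the 21 members of the mean difference was 0.12, and −0.21 after each array was centred on its median, a scaling that moved the median of all probe sets to −0.30, so the direction of this median depends on the scaling.

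**Figure D4:**
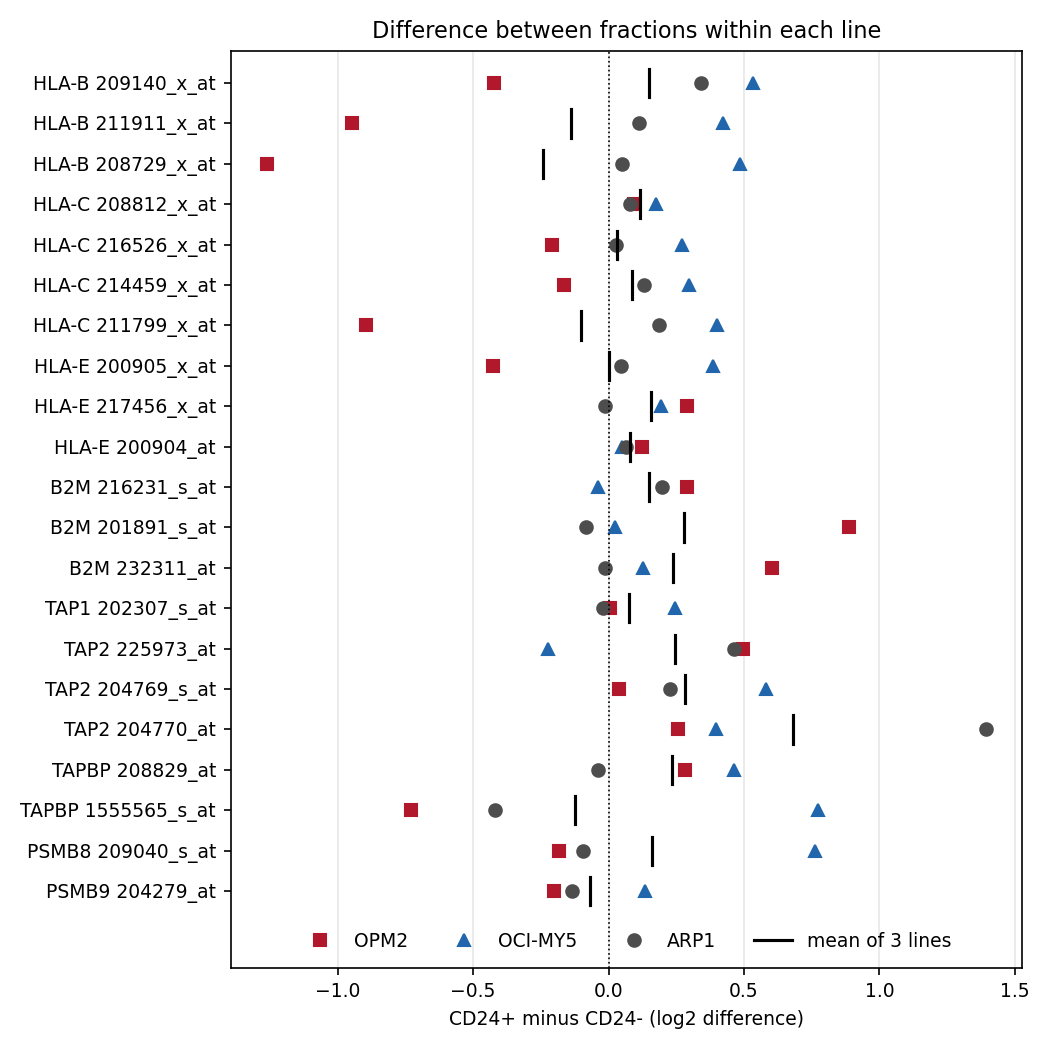
Log2 difference of CD24+ minus CD24− cells (x axis) within each line for the 21 tested class I probe sets (rows); squares are OPM2, triangles OCI-MY5 and circles ARP1, 1 difference each, and the bar is the mean of the 3 lines. HLA-B 208729_x_at spans −1.26 in OPM2 to 0.49 in OCI-MY5, and HLA-C 208812_x_at lies between 0.08 and 0.18 in all 3 lines.

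None of the pathway lists had a gene called between fractions either, at 0.0% of 12067 genes. The counts of genes with 1 sign in all lines that follow are descriptions. Their share over all genes was not computed, and over all tested probe sets 16.59% were higher and 12.64% lower in all 3 lines. Of 8 loading genes 1 was higher in CD24+ cells of all 3 lines, CALR (0.40 ± 0.34, SD, n = 3 lines), and 1 lower, ERAP2 (−0.58 ± 0.40). Of 9 proteasome genes 0 were higher and 2 lower, PSMA3 (−0.27 ± 0.19) and PSMA7 (−0.05 ± 0.04). Of 7 class I-like genes 2 were higher, among them HFE (0.90 ± 0.25), and 1 lower, MR1 (−0.24 ± 0.14). Of 12 transcription genes 3 were higher and 0 lower in CD24+ cells of all 3 lines, among them RFXANK (0.24 ± 0.18) and IRF1 (0.20 ± 0.10). Of 10 interferon signalling genes 2 were higher and 0 lower, SOCS3 (0.59 ± 0.29) and TYK2 (0.25 ± 0.14). Of 12 interferon-stimulated genes 5 were higher and 1 lower, among them IFIT3 (0.53 ± 0.33), and CXCL10, whose sign rests on values below the TrpnX maximum of the array in OPM2 and ARP1. IFI35 was the 1 lower in all lines, with a mean of −0.24 ± 0.25. Some of these signs rest on near ties of CD24+ and CD24− cells. ISG15, counted as higher, read 1748.0 and 1747.8 in ARP1, UBE2L6, also counted as higher, 1433 and 1430.5 in OCI-MY5, and IFI35 141.0 and 141.3 in OPM2. Of 7 class II genes 5 were higher and 0 lower, among them CTSS (0.62 ± 0.25), and CIITA, which in OPM2 was not above the TrpnX controls of its arrays. GAPDH, a check gene, differed by 0.24 ± 0.10 in the same direction.

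Markers of other cell types were read beside the line differences. The summed intensity of the 9 plasma cell markers was 188712 to 261501 in OPM2, 110190.3 to 114007 in OCI-MY5 and 148021 to 151571 in ARP1. JCHAIN was the brightest of them on every array, at 152284.5 and 73307 in CD24+ and CD24− cells of OPM2. Of the 9, 5 were called higher and 1 lower in OPM2 than in ARP1, the lower being MZB1 (−1.39 ± 0.21, adjusted p = 0.0121). Against OCI-MY5, 5 were called higher and 0 lower. Of 4 natural killer cell markers 1 was tested, GNLY, at 119 and 22.5 in OPM2, 29.9 and 5.51 in OCI-MY5, and 5215 and 6859 in ARP1, while NKG7 and KLRD1 reached at most 102 on any array. Of the erythroid markers, HBB read 2298 and 1792 in OPM2, 99.9 and 192 in OCI-MY5, and 76.2 and 225 in ARP1. ALAS2, the other erythroid marker with a probe set, ranged from 3.48 to 87.75 over the arrays and was too dim to be tested. For T cells 1 of 4 markers with a probe set was tested, for myeloid cells 2 of 5 and for stromal cells 2 of 4, and their summed intensities reached at most 784 on any array. All 4 B cell markers with a probe set were tested, with a sum of 593 and 315 in OPM2, 489 and 813 in OCI-MY5, and 863 and 477 in ARP1. PAX5 read 16.4 and 15.9 in OPM2, within the TrpnX range, 334 and 421 in OCI-MY5, and 370 and 272 in ARP1. It was called lower in OPM2 than in both other lines. MS4A1, CD79A and CD22 went the other way, with differences above 0 in both comparisons, none called. The part of any such cells in the class I differences was not tested.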

How the data were processed

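RNA of the sorted fractions was hybridised to Affymetrix Human Genome U133 Plus 2.0 arrays, 1 per sample, per the labels' protocols. The deposited values are MAS5 intensity, which the authors computed with Affymetrix Expression Console 1.1 per the submitters' processing notes and whose trimmed mean, with 2% left out at each end, is the same on each array. MAS5 subtracts a mismatch signal and does not match distributions between arrays. No detection call was used.

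Probe sets were named from the platform annotation (41091 with 1 symbol, 1801 with several, 11721 with none) and 41037 matched RefSeq. After 62 controls were left out, log2(intensity + 16) was fitted in R 4.3.3 by limma 3.58.1 (two-sided moderated test of lmFit and eBayes, Benjamini-Hochberg at 0.05) on 27281 probe sets with a mean at or above 6.36, the median of all. In tests between lines both fractions of a line counted as its 2 replicates. Gene lists use the brightest probe set per gene. The number of arrays limits the precision. Array numbers in the titles stand for lines, and the correlation of deviations from the fraction means was 0.633, 0.633 and 0.704 for arrays of 1 line and −0.527 to 0.095 otherwise. The samples are thus paired by number.

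The members, lists and tests were chosen with earlier results of these data known. Named were all member probe sets and the 5 genes most like TAP1. List genes were drawn from up to 4 called genes per comparison with the largest difference (up to 2 with 1 sign in all lines where none was called). Not all of these are given above: HLA-DPA1, which had the largest class II differences, HLA-DMA, SP110 and GBP2 are among those left out. PSMB10, GNLY, HBB, other marker genes and some uncalled list genes were also named after their values were seen. Alternatives were pseudocounts of 1 and 64, no or a stricter brightness limit, quantile normalization, median centring, a trend in the prior variance, 1 value per gene, the line as a block, the fraction as a covariate, and leaving out arrays or lines. The limma steps were tested on simulated data. Quantile normalization with the block was added after seeing the data. Promoter windows came from RefSeq (GRCh38.p14).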

Additional observations from a re-analysis of the deposited data

Results flagged for a closer look

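Several class I probe sets had differences between CD24+ and CD24− cells that ran in opposite directions in 2 lines, each by at least 0.4 log2 units, a limit chosen after the values were seen. With 1 array per line and fraction none of these differences was tested. The CD24+ minus CD24− difference in OPM2 minus that in OCI-MY5 was −0.96 for HLA-B 209140_x_at, −1.37 for HLA-B 211911_x_at, −1.75 for HLA-B 208729_x_at and −1.3 for HLA-C 211799_x_at. These 4 probe sets can bind transcripts of related class I genes, so they are not independent of each other. For TAPBP 1555565_s_at, which read 150 to 299 over the 6 arrays, the difference was −1.5 for OPM2 minus OCI-MY5 and 1.19 for OCI-MY5 minus ARP1, while TAPBP 208829_at differed by 0.28 in OPM2, 0.46 in OCI-MY5 and −0.04 in ARP1.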

How the results depend on the processing

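No class I difference called between lines changed sign under any alternative run. For OPM2 minus ARP1, the 10 members called became 1 with no brightness limit, 5 with the brightest and 4 with the mean probe set per gene (of 9 genes), 6 with the fraction as a covariate, and 1 to 11 with 1 array left out. The 4242 calls over all probe sets became 1283 with no brightness limit, 2762 with centring, 6699 with a variance trend, 2204 with the mean per gene, and 506 to 8184 with 1 array left out. For OPM2 minus OCI-MY5, the 3 members became 1 with no brightness limit and 1 to 8 with 1 array left out, and the 4174 calls over all became 1192 with no limit, 6380 with the trend, 2305 with the mean per gene and 782 to 8378 with 1 array left out. For OCI-MY5 minus ARP1, the 0 members became 1 with a pseudocount of 64, 4 with the stricter limit, 5 with the trend and 0 to 1 with 1 array left out. The 95 calls over all became 3 and 572 with pseudocounts of 1 and 64, 1 with no limit, 1553 with the stricter limit, 29 with quantile normalization, 58 with centring, 1584 with the trend, 328 with the brightest probe set per gene, 2 with the covariate, and 0 to 535 with 1 array left out. The cause of these shifts was not tested, beyond the numbers of probe sets and arrays that each alternative fixes. Centring also moved the split over all probe sets to 702 higher and 2060 lower, against 1687 and 2555, for OPM2 minus ARP1 and to 748 and 2161, against 1849 and 2325, for OPM2 minus OCI-MY5, while it moved the median of all to −0.263 and −0.33. Between fractions limma called 0 members and 0 probe sets in every alternative run. The replicate block of cell line raised the probe sets with an unadjusted p under 0.05 to 1367 from 359 and left members at 0, with no call changed.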

Other observations

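Below the brightness limit, 2 member probe sets were fitted only without that limit or within the mean of a gene's probe sets. TAP2 208428_at read 69.7 and 21.8 in CD24+ and CD24− cells of OPM2, 14.8 and 58.7 in OCI-MY5, and 86.5 and 8.61 in ARP1. TAPBP 210294_at read 6.33 and 11.8 in OPM2, 92.3 and 33.1 in OCI-MY5, and 23.7 and 21.2 in ARP1. Each exceeded the highest TrpnX signal of the same array on 2 of 6 arrays.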
